A study of Mus musculus with 12 samples.

Results

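Ferritin stores iron inside cells as a mineral core within a protein shell built from heavy and light chain subunits. The heavy chain, encoded by *Fth1*, carries the ferroxidase site that oxidises incoming iron, and the light chain, encoded in the mouse by *Ftl1*, favours formation of the mineral. Both messenger RNAs carry an iron-responsive element in the 5′ untranslated region, a hairpin to which iron regulatory proteins bind when iron is scarce and block translation. The light chain also has processed copies, made by reverse transcription of the messenger RNA and scattered over the genome without introns. Light chain messenger RNA is abundant in most tissues, and macrophages that recycle red cells hold much ferritin.

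The rows followed were 6 of 54532 genes: *Ftl1*, 4 light chain pseudogenes (*Ftl2-ps*, *Ftl1-ps2*, *Gm12164*, and *Gm15590*), and *Fth1*. They were taken by gene name, and the set was chosen by the TPM difference between genotypes in the bladder, which was already known. Values in the bladder are therefore a description without a test. The colon contrast was tested, although 3 of the mice gave both tissues.

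RNA-seq was done on whole distal colon and whole urinary bladder of male mice. Y/T KO mice carried floxed alleles of *Yap1* and *Wwtr1*, which encode the Hippo pathway coactivators YAP and TAZ, and the Myh11-CreERT2 transgene, a tamoxifen-activated recombinase driven by the smooth muscle myosin promoter. Ctrl mice carried the floxed alleles without Cre. All mice, Ctrl included, received 5 daily tamoxifen injections of 1 mg at 5 to 7 weeks of age, and tissue was taken on day 7 after the first. Each group held 3 libraries, 1 mouse each. By mouse number, the Ctrl colons were 788, 786, and 787, and the Y/T KO colons 759, 783, and 780. The Ctrl bladders were 784, 785, and 788, and the Y/T KO bladders 782, 783, and 780. The transgene sits on the Y chromosome, so no female was studied, and the strain background was mixed. The 12 libraries came from 9 mice, and aligned bases ran from 2.80 to 3.94 gigabases per library. In the bladder, *Yap1* was 98.6 to 110 TPM (a transcript's share of the library, scaled for its length) in Ctrl and 69.4 to 72.1 TPM in Y/T KO. In the colon the genotypes overlapped, at 45.8 to 54.9 and 41.3 to 47.0 TPM, and *Wwtr1* overlapped in both tissues. The rows span whole genes, so the floxed exons were not measured apart.

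The sequences of the copies come first, because they are so close to *Ftl1* that short reads can fit several rows. *Ftl1* lies on the minus strand of chromosome 7 (GRCm38 chr7:45457944-45459884). Its main transcript has 968 bases in 4 exons, with 552 coding bases including the stop codon, that is, 183 codons before the stop. *Ftl2-ps* lies at chr4:125504288-125504839 on the plus strand, inside the span of the glutamate receptor gene *Grik3*. *Ftl1-ps2* lies at chr10:130592157-130592705 on the minus strand. *Gm12164* lies at chr11:45829319-45829869 on the plus strand, within *F630206G17Rik*. *Gm15590* lies at chr17:6131854-6132405 on the minus strand, opposite in direction to its host *Tulp4*. All 4 are annotated as processed pseudogenes, and each row is 549 to 552 bases long, the coding part alone without untranslated regions.

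Aligned to the coding sequence of *Ftl1*, counted from 1 at the start codon, *Gm15590* had 5 substitutions and was 99.09% identical. *Ftl2-ps* had 7 substitutions at 98.73% identity. Both kept an open reading frame to the stop at codon 184. *Ftl1-ps2* had 12 substitutions, and its row ended 3 bases early, before the stop codon. *Gm12164* had 17 substitutions, 3 deleted bases, and 2 inserted bases, and its first stop came at codon 107. The substitutions G468A and G504A, both at the last position of a codon, occurred in all 4 copies. A307C, A401T, and T402C occurred in 3 copies, all but *Gm15590*. The end of the coding sequence shows shared and private bases, with bases that differ between *Ftl1* and a copy in capitals (in the *Ftl1* line, positions shared by 3 or more copies). It runs from coding base 459 to 552:
Ftl1: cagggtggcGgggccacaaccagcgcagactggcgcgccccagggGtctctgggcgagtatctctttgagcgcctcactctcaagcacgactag
Gm15590: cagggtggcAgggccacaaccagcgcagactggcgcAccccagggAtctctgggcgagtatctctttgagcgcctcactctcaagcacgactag
Ftl2-ps: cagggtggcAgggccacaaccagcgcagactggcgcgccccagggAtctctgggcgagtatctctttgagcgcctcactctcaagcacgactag
Ftl1-ps2: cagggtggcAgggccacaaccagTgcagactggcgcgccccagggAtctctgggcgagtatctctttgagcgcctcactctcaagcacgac
Gm12164: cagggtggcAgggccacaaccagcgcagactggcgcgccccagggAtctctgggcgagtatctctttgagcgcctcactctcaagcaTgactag

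**Figure D1:**
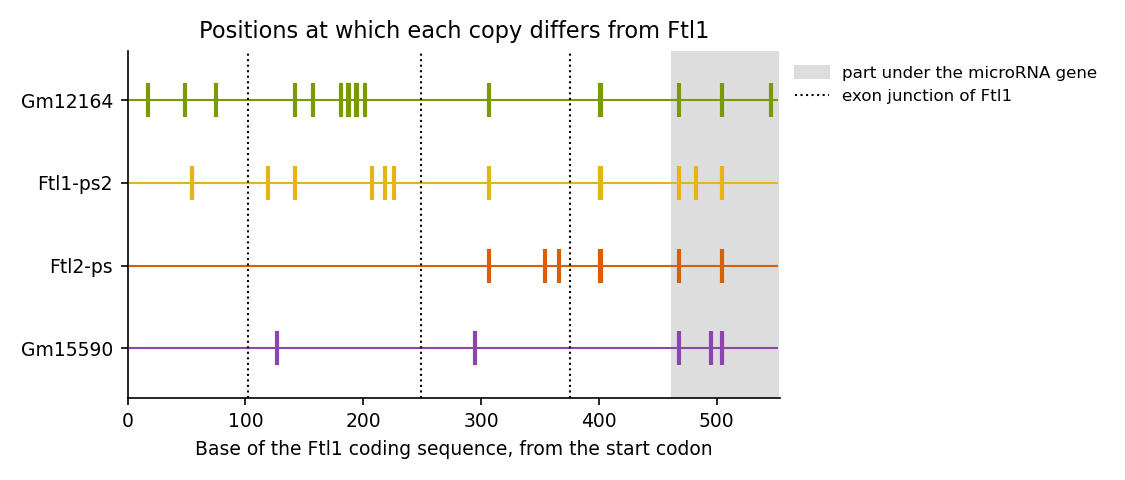
Substitutions of each light chain copy against *Ftl1* along the coding sequence (x axis, bases from the start codon; 1 line per copy, 1 tick per substitution), with the 3 exon junctions of *Ftl1* dotted and the part under a microRNA gene shaded. *Ftl2-ps* carries no substitution before base 307, and the last 2 shared positions, 468 and 504, fall in the shaded part.

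How far a read could tell the rows apart was read from the reference sequence. Of all stretches of 75 bases in *Ftl2-ps*, 48.5% also occur in *Ftl1*, and of those in *Gm15590*, 50.8%. The shares were 5.26% for *Ftl1-ps2* and 3.98% for *Gm12164*. Stretches found in *Ftl1*, *Ftl1-ps1*, or another copy made up more, 81.8% for *Ftl2-ps* and 56.5% for *Gm15590*. For *Ftl1-ps2* and *Gm12164* they made up 36.4% and 38.6%. With stretches of 50 bases, 25% of *Ftl1-ps2* and 16.1% of *Gm12164* occur in *Ftl1*. Read length is not known, so 75 bases serves as an illustration. In the other direction, the coding part of *Ftl1* was set against the 4 copies and *Ftl1-ps1* together. Of its 75-base stretches, 82.2% occur in at least 1 of them. The 4 copies alone were not compared in this way. *Ftl1-ps1*, an annotated protein-coding retrogene at chr13:74399694-74407346 that is not among the 6, differs from *Ftl1* in the coding part only at G468A and G504A. So the bases that all 4 copies share are also those of the retrogene. In the libraries, reads at these positions were not seen, since only values per gene were analysed.

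The heavy and light chain messenger RNAs share their control element, shown as 30 bases of each 5′ untranslated region with the first bases of its loop in capitals, from transcript base 77 of *Ftl1* and base 86 of *Fth1*:
Ftl1: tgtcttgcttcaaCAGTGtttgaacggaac
Fth1: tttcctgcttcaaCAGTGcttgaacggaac
The rows of the 4 copies hold no untranslated region and so no such element.

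*Ftl1*, the functional light chain gene, had 511, 355, and 411 TPM in Ctrl colons 788, 786, and 787, and 565, 1076, and 1028 TPM in Y/T KO colons 759, 783, and 780. Every Y/T KO colon was above every Ctrl colon, with mouse 759 closest to Ctrl. The log2 fold change was 1.06 (SE 0.29, n = 3 per genotype), with an adjusted p of 0.364 by limma. In the bladder, *Ftl1* had 420, 575, and 585 TPM in Ctrl mice 784, 785, and 788, against 1869, 1163, and 1180 TPM in the Y/T KO bladders of 782, 783, and 780. Again the genotypes did not overlap, and the log2 difference was 1.39 (SE 0.20).

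*Ftl2-ps*, the copy with the highest level, had 671, 402, and 601 TPM in the Ctrl colons. In the Y/T KO colons it had 214 TPM in mouse 759 and was listed at 0 in mice 783 and 780. In the Ctrl bladders it had 494, 665, and 740 TPM, against 1.46, 1.19, and 1.23 TPM in the Y/T KO bladders. In all 6 Ctrl libraries this pseudogene thus stood above its parent gene in TPM, and in all 6 Y/T KO libraries it stood below. *Ftl2-ps* has the shorter row, so a read adds more TPM to it, and it shares sequence with *Ftl1*. The log2 difference was −8.81 (SE 0.15) in the bladder. In the colon it was −8.69 with an SE of 3.38, and the adjusted p was 0.517 by limma. With 2 libraries at 0 this value depends on the pseudocount, and 1 TPM in place of 0.1 gave −6.48.

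*Ftl1-ps2* had 140, 83.6, and 122 TPM in the Ctrl colons and 44.0, 0.17, and 0.54 TPM in Y/T KO colons 759, 783, and 780. In the bladder it had 91.8, 127, and 147 TPM in Ctrl against 0.42, 0.88, and 0.66 TPM in Y/T KO. The genotypes were apart in both tissues, with mouse 759 between the other Y/T KO colons and Ctrl. The log2 differences were −5.80 (SE 1.96, adjusted p = 0.483 by limma) in the colon and −7.36 (SE 0.29) in the bladder.

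*Gm12164*, the copy with the interrupted reading frame, had 25.5, 14.7, and 25.2 TPM in the Ctrl colons and 8.39, 0.21, and 0.16 TPM in the Y/T KO colons. In the bladder it had 16.8, 23.2, and 27.0 TPM in Ctrl against 0.41, 0.10, and 0.31 TPM in Y/T KO. As for *Ftl1-ps2*, genotypes were apart in both tissues, and mouse 759 lay between. The log2 differences were −4.57 (SE 1.39, adjusted p = 0.445 by limma) and −5.99 (SE 0.37).

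*Gm15590*, the copy closest to *Ftl1*, had the smallest difference of the 4. It had 15.6, 5.19, and 13.3 TPM in the Ctrl colons and 6.37, 3.95, and 3.11 TPM in the Y/T KO colons, where mouse 759 lay above Ctrl mouse 786. In the bladder the genotypes were apart, at 11.9, 17.2, and 20.8 TPM in Ctrl against 4.27, 3.84, and 3.65 TPM in Y/T KO. The log2 differences were −1.21 (SE 0.48, adjusted p = 0.492 by limma) in the colon and −2.02 (SE 0.21) in the bladder.

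**Figure D2:**
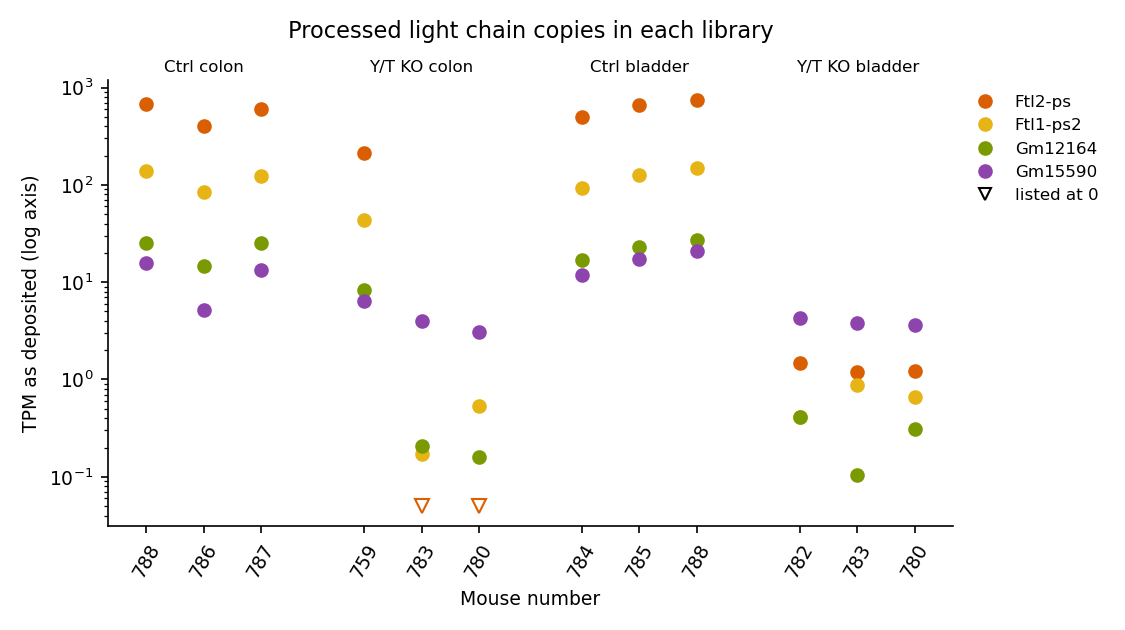
TPM of the 4 light chain copies in each library (log y axis; 1 point per copy and library, mouse numbers on the x axis, open triangles for values listed at 0). In the 6 Ctrl libraries and in Y/T KO colon 759 the copies keep 1 order from *Ftl2-ps* down to *Gm15590*, and in the other 5 Y/T KO libraries *Gm15590* is the highest of the 4, at 3.11 to 4.27 TPM.

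Of the 6 rows, 0 were called in the colon at an adjusted p under 0.05, where 0.137% of the 17500 genes tested were called in either direction. By direction, 14 genes or 0.08% were called lower and 10 genes or 0.0571% higher. At an unadjusted p under 0.05, *Ftl1*, *Ftl1-ps2*, *Gm12164*, and *Gm15590* passed, against 9.73% of all genes. For *Ftl2-ps*, *Ftl1-ps2*, and *Gm12164* the Ctrl colons alone sufficed for the filter on low values. A row that passes in this way while low in Y/T KO is bound to lie lower. Mice that gave both tissues also counted in the bladder difference by which the rows were chosen. Setting these rows beside all colon genes is therefore a description and not independent evidence. In the colon, 3 copies were lower without overlap, where 7.87% of genes were lower without overlap, and *Ftl1* was higher without overlap, as 8.24% of genes were. The corresponding shares in the bladder were 11.4% and 10.6%, and 0.302% of 18237 genes were called there, 0.219% lower and 0.0823% higher. A fit over all 12 libraries with the mouse as a replicate block called 40 genes lower and 33 higher in the colon, and none of the 6 rows.

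For *Ftl1*, *Ftl2-ps*, *Ftl1-ps2*, and *Gm12164*, the spread of the Y/T KO colons rested largely on mouse 759. For *Gm15590* and *Fth1* the SE was 0.52 and 0.20 without mouse 759, against 0.48 and 0.18 with it. Without it, 43 genes were called lower and 20 higher, and the adjusted p by limma was 1.62e-05 for *Ftl2-ps*, 0.00164 for *Ftl1-ps2*, and 0.00149 for *Gm12164*. The Ctrl libraries alone brought these copies past the filter on low values, and a row that passes in this way while low in Y/T KO had to differ, so these p-values are a description. *Ftl2-ps* and *Gm12164* were under 0.5 TPM in both remaining Y/T KO colons, and *Ftl1-ps2* in 1 of them. The log2 fold changes were then −8.04 (SE 0.43) for *Ftl1-ps2* and −6.21 (SE 0.36) for *Gm12164*. No fold is given for *Ftl2-ps*, since both remaining Y/T KO colons are listed at 0. *Ftl1* had a log2 fold change of 1.36 (SE 0.23) and an adjusted p of 0.10, *Gm15590* had −1.48 and 0.335, and *Fth1* had −0.46 and 0.393, all by limma. Mice 783 and 780, the remaining Y/T KO colons, are also among the 3 Y/T KO bladders.

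The levels of 3 copies kept similar proportions wherever they were high. *Ftl2-ps* was 4.81 to 5.38 times *Ftl1-ps2* and 23.9 to 29.4 times *Gm12164* over the 6 Ctrl libraries, on the TPM scale. In Y/T KO colon 759 the same ratios were 4.87 and 25.5, although the levels were below those of every Ctrl library. In the Y/T KO bladders *Ftl2-ps* was 3.51, 1.35, and 1.86 times *Ftl1-ps2* in mice 782, 783, and 780. Over the 12 libraries, Pearson's r of the log2 levels between pairs of copies ran from 0.85 to 0.98, and between *Ftl1* and each copy from −0.90 to −0.64. These points share libraries, reads that fit more than 1 row, and a split by genotype.

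Because the rows share sequence, the levels of *Ftl1* and its 4 copies were also summed. The rows differ in length, so a read adds more TPM to a copy than to *Ftl1*. The sum was 1363, 860, and 1172 TPM in Ctrl colons 788, 786, and 787 and 838, 1080, and 1032 TPM in Y/T KO colons 759, 783, and 780. In the bladder it was 1034, 1408, and 1521 TPM in Ctrl against 1876, 1169, and 1186 TPM in Y/T KO. On this scale the genotypes overlapped in both tissues. The log2 fold change of the sum was −0.15 (SE 0.23) in the colon and 0.08 (SE 0.20) in the bladder, in each case within its error.

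The share of the sum held by the copies was 58.8% to 64.9% in the 6 Ctrl libraries, 32.6% in Y/T KO colon 759, and 0.35% to 0.51% in the other 5 Y/T KO libraries. Mouse 788 had 62.5% in its colon and 61.5% in its bladder. Mouse 783 had 0.40% and 0.51%, and mouse 780 had 0.37% and 0.49%. The share was thus close in both tissues of each mouse that gave both, but it was also close between mice of the same genotype, apart from mouse 759. Mice 783 and 780 were closer to each other within a tissue than each was between its own tissues. Mouse 759 gave only a colon.

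**Figure D3:**
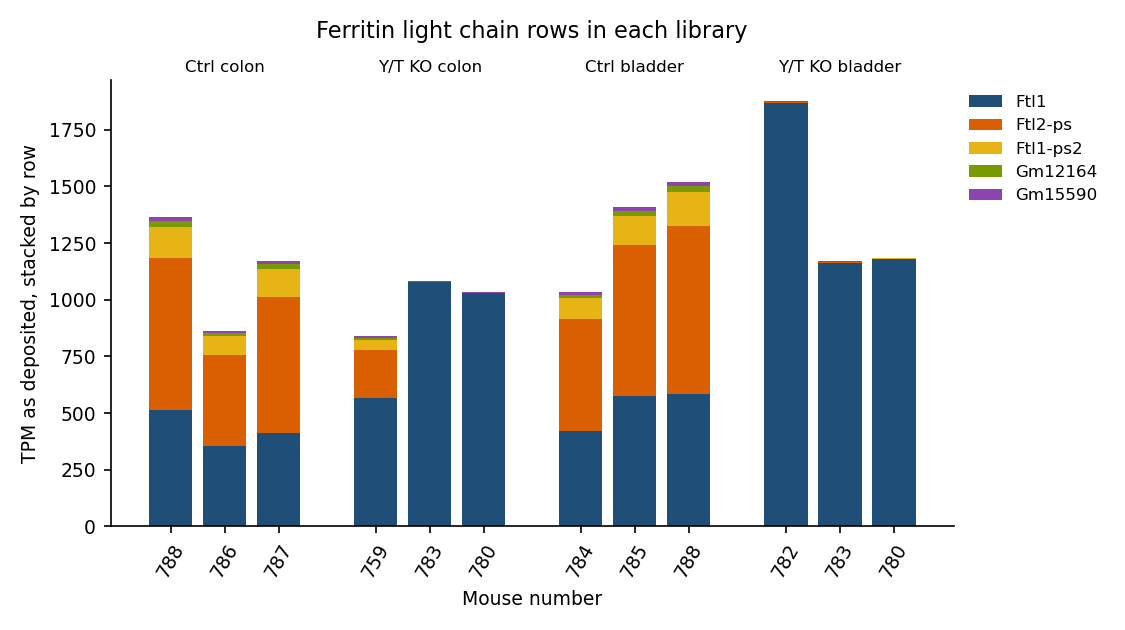
TPM of *Ftl1* and its 4 copies stacked for each library (y axis from 0; mouse numbers on the x axis). *Ftl2-ps* and *Ftl1-ps2* make up most of what lies above *Ftl1* in Ctrl, Y/T KO colon 759 holds a smaller share of the copies, 32.6%, and the other 5 Y/T KO bars are almost all *Ftl1*, with TPM totals that overlap those of Ctrl.

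Short microRNA genes lie on the same strand at the end of each light chain row, and values are listed for them separately. Each is 109 bases long. The gene over *Ftl1*, *Gm22133*, covers the last 91 coding bases and 18 bases beyond. The microRNA that 3 genes of this kind (*Mir692-1*, *Mir692-2*, and *Mir692-3*) are annotated to give, miR-692, is shown as the RefSeq mature sequence with its seed, bases 2 to 8, in capitals:
mmu-miR-692: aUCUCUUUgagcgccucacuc
Its DNA letters occur in *Ftl1* at coding bases 518 to 538 and in the *Ftl1-ps1* retrogene and all 4 copies, so values of these genes from libraries of polyadenylated RNA cannot be told apart from light chain fragments.

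*Gm22133* had 1888 and 1159 TPM in Y/T KO colons 783 and 780, and 0.14 to 0.55 TPM in each of the other 10 libraries. *Gm22774*, over *Gm15590*, had 619, 294, and 544 TPM in the Ctrl colons and 409, 625, and 644 TPM in the Ctrl bladders. In the Y/T KO colons it had 222, 0, and 0.17 TPM in mice 759, 783, and 780, and in the Y/T KO bladders 0.26, 0.18, and 0.75 TPM. *Gm26445*, over *Ftl1-ps2*, had 23.4 to 43.3 TPM in Ctrl, 13.8 TPM in Y/T KO colon 759, and at most 0.46 TPM in the other Y/T KO libraries. *Mir692-2*, over *Ftl2-ps*, had 38.1, 0.29, and 29.9 TPM in the Ctrl colons and 35.7, 39.9, and 45.8 TPM in the Ctrl bladders, against at most 9.69 TPM in Y/T KO. *Gm22751*, over *Gm12164*, stayed at or below 0.41 TPM. *Gm22774*, *Gm26445*, and *Mir692-2* were thus lower in the Y/T KO bladders than in the Ctrl bladders, as the copies under them were, and *Gm22133* was high in only those Y/T KO colons in which *Ftl2-ps* was listed at 0.

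Weighting each of the 5 rows by its length (968 bases for the main *Ftl1* transcript), a choice made after values were seen, gave a log2 fold change of the sum of 0.23 (SE 0.25) in the colon and 0.51 (SE 0.20) in the bladder. On this scale the colons still overlapped, while every Y/T KO bladder lay above every Ctrl bladder. With all rows whose sequence matches *Ftl1* and the 5 microRNA genes added, the values were 0.30 (SE 0.28) and 0.41 (SE 0.20), and the bladders overlapped as deposited but not after rescaling. Summing the deposited coverage instead gave −0.42 (SE 0.23) and −0.25 (SE 0.20). Relative to the plain sum of TPM, length weighting turned the sign in the colon and coverage turned it in the bladder.

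*Ftl1-ps1* had 2.07, 0, and 1.68 TPM in the Ctrl colons and 3.97, 14.5, and 7.73 TPM in Y/T KO colons 759, 783, and 780. In the bladder it had 0, 2.11, and 0 TPM in Ctrl against 9.61, 0, and 11.9 TPM in Y/T KO. The genotypes overlapped in the bladder and were apart in the colon, where 8.24% of all genes were higher without overlap. The colon log2 fold change was 3.40 (SE 1.24, adjusted p = 0.488 by limma). With Ctrl mouse 786 listed at 0, this value depends on the pseudocount. *Ftl1-ps1* was the only light chain row besides *Ftl1* with a higher mean in Y/T KO among those that reached 1 TPM. The processed pseudogenes *Gm7541* and *Gm5278*, 90.84% and 91.85% identical to *Ftl1*, stayed at or below 0.69 TPM. The heavy chain pseudogene *Gm6977*, 90.46% identical to *Fth1*, was listed at 0 in all 12 libraries.

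*Fth1* (plus strand, chr19:9982703-9985092 in the files) codes for 182 amino acids in 4 exons and had no related row that reached 1 TPM. It had 5680, 5150, and 5112 TPM in the Ctrl colons and 4916, 3970, and 3569 TPM in Y/T KO colons 759, 783, and 780. As deposited, every Y/T KO colon was below every Ctrl colon, but the values overlapped once rescaled for library composition. The log2 fold change was −0.33 (SE 0.18), with an adjusted p of 0.602 by limma. In the bladder it had 4224, 5067, and 5084 TPM in Ctrl against 5017, 3350, and 4157 TPM in Y/T KO, which overlapped (log2 difference −0.21, SE 0.13). By group mean, *Fth1* was highest in Ctrl colon at 5314 ± 318 TPM (SD, n = 3), then Ctrl bladder at 4792 ± 491, Y/T KO bladder at 4175 ± 834, and Y/T KO colon at 4151 ± 691. The Ctrl colons lay just above the Ctrl bladders without overlap, and the remaining neighbours in this order overlapped.

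For *Ftl1* the order was Y/T KO bladder at 1404 ± 403 TPM (SD, n = 3), Y/T KO colon at 890 ± 282, Ctrl bladder at 527 ± 92.8, and Ctrl colon at 426 ± 79.4. Y/T KO bladder lay above Y/T KO colon without overlap, and each of the remaining pairs of neighbours overlapped. For the light chain sum the order was Y/T KO bladder at 1410 ± 403 TPM, Ctrl bladder at 1321 ± 255, Ctrl colon at 1132 ± 254, and Y/T KO colon at 984 ± 128, and all neighbours overlapped.

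The ratio of heavy to light chain depended on which light chain value was used. On the TPM scale *Fth1* was 8.69 to 14.5 times *Ftl1* in the Ctrl libraries, 8.70 times in Y/T KO colon 759, and 2.68 to 3.69 times in the other 5 Y/T KO libraries. Against the sum of *Ftl1* and its copies, *Fth1* was 3.34 to 5.99 times in Ctrl and 2.67 to 5.86 times in Y/T KO, which overlapped.

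**Figure D4:**
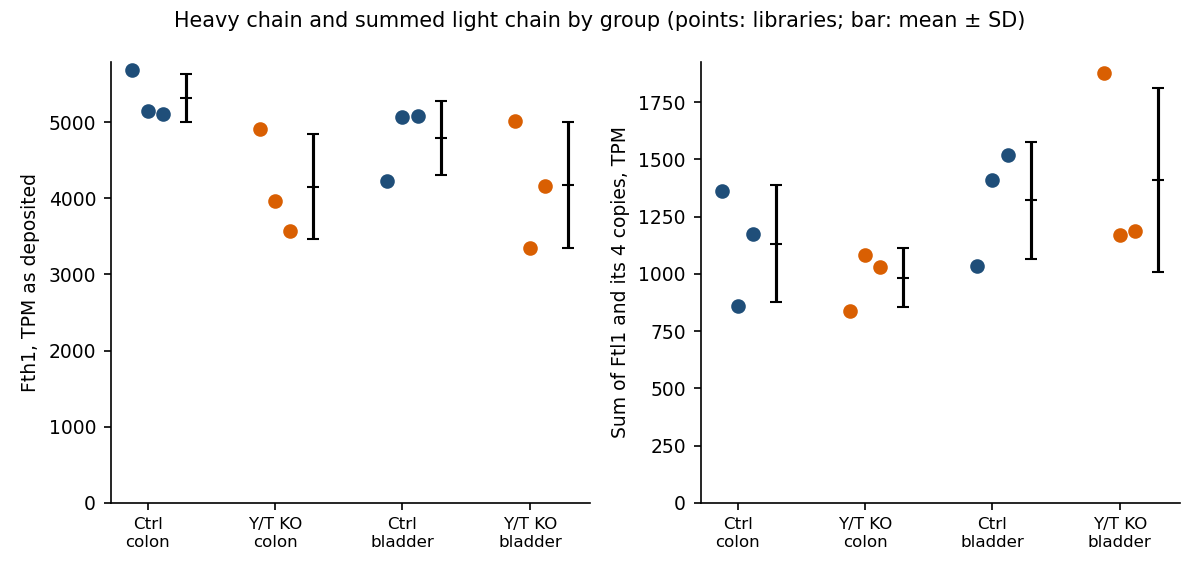
*Fth1* (left) and the sum of *Ftl1* and its 4 copies (right) in TPM by group (y axes from 0; points are libraries, bars the mean ± SD of 3). Genotypes overlap for the sum in both tissues and for *Fth1* in the bladder, and the Y/T KO colons lie below the Ctrl colons for *Fth1* as deposited.

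Genes that import, export, and sense iron were compared as a background for the ferritin rows. Of the iron handling genes, 23 passed the filter for the colon and 22 for the bladder. By limma 0 were called, and 0 and 5 passed at an unadjusted p under 0.05, where 9.73% of all colon genes and 14.8% of all bladder genes passed. Their median log2 fold change was 0.03 in the colon and −0.01 in the bladder, beside 0.01 and 0.00 over all genes. *Tfrc*, the transferrin receptor for iron uptake, had 90.1, 110, and 83.4 TPM in the Ctrl colons and 103, 85.9, and 113 TPM in the Y/T KO colons. Its log2 fold changes were 0.13 (SE 0.15) and 0.01 (SE 0.17) in colon and bladder. *Slc40a1*, the iron exporter ferroportin, had −0.04 (SE 0.20) and −0.06 (SE 0.14).

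*Ncoa4*, the receptor that delivers ferritin to lysosomes, had log2 fold changes of −0.14 (SE 0.22) in the colon and −0.02 (SE 0.18) in the bladder. *Pcbp1*, a chaperone that loads iron onto ferritin, had 163 to 171 TPM in the Ctrl bladders and 133 to 149 TPM in the Y/T KO bladders, a log2 fold change of −0.21 (SE 0.07) with an adjusted p of 0.267 by limma. *Heph*, a copper oxidase that works with ferroportin, had 9.78, 6.85, and 7.47 TPM in the Ctrl bladders and 10.7, 15.5, and 12.8 TPM in the Y/T KO bladders (log2 fold change 0.69, SE 0.22, adjusted p = 0.248 by limma).

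Of the iron sensing and heme breakdown genes, 8 passed the filter for the colon and 9 for the bladder, and 0 were called by limma or passed unadjusted. *Aco1* and *Ireb2* encode the 2 iron regulatory proteins that bind the element shown above. Their log2 fold changes were −0.05 (SE 0.13) and −0.25 (SE 0.20) in the colon and −0.02 (SE 0.10) and 0.01 (SE 0.13) in the bladder. *Hmox1*, the heme oxygenase that frees iron from heme, had 0.33 (SE 0.20) and −0.38 (SE 0.27).

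**Figure D5:**
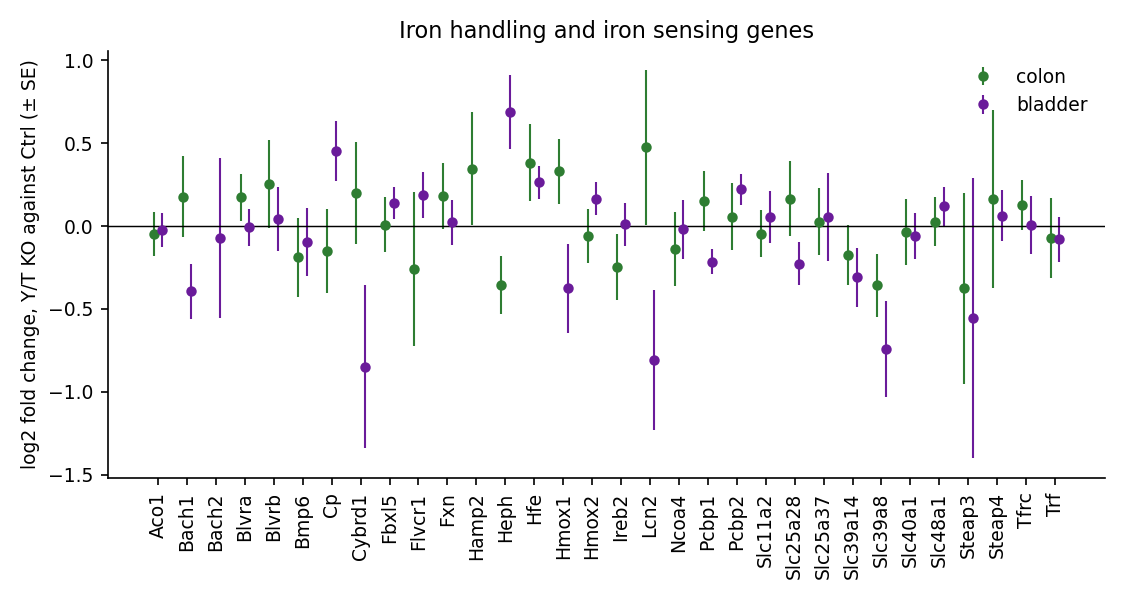
Log2 fold change of Y/T KO against Ctrl ± SE for iron handling and iron sensing genes (y axis), colon in green and bladder in purple, from the limma fits of 6 libraries each. Values lie on both sides of 0 in each tissue, and none passed an adjusted p of 0.05.

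The transcription factor NRF2, encoded by *Nfe2l2*, drives antioxidant genes and both ferritin genes. Of 15 genes of this pathway, 0 were called by limma in either tissue, while 2 in the colon and 3 in the bladder passed unadjusted, beside 9.73% and 14.8% of all genes. The medians were −0.08 and −0.05. *Nqo1*, a quinone reductase, had log2 fold changes of −0.18 (SE 0.16) in the colon and 0.58 (SE 0.17, adjusted p = 0.211 by limma) in the bladder. *Gclc*, which starts glutathione synthesis, had −0.42 (SE 0.14, adjusted p = 0.449) and 0.24 (SE 0.12).

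Markers of cells rich in ferritin or heme were also counted. In the colon, 10 of 12 macrophage genes had a positive log2 fold change, 4 passed unadjusted, beside 9.73% of all genes, and 0 were called by limma. The complement subunit genes *C1qa*, *C1qb*, and *C1qc* and the Fc receptor gene *Fcgr1* were higher without overlap, as 8.24% of all genes were, with log2 fold changes of 0.68 (SE 0.20), 0.62 (SE 0.18), 0.57 (SE 0.19), and 0.90 (SE 0.33). The summed level of the list overlapped, at 991 to 1864 TPM in Ctrl against 1398 to 1746 TPM in Y/T KO. In the bladder, the sums were 2089 to 3387 and 2267 to 3104 TPM. There 5 of the 12 had a positive log2 fold change, the median was −0.17, and 0 were called. *Adgre1*, which encodes the F4/80 antigen, passed unadjusted, as 14.8% of all genes did, at −0.42 (SE 0.16, adjusted p = 0.298 by limma).

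Red cell genes were also higher in the Y/T KO colons, at 38.7 to 55.3 TPM summed over the list in Ctrl and 83.5 to 140 TPM in Y/T KO. The hemoglobin gene *Hbb-bs* had 30.8, 27.3, and 17.9 TPM in Ctrl against 81.8, 64.9, and 46.3 TPM in Y/T KO colons 759, 783, and 780 (log2 fold change 1.38, SE 0.26, adjusted p = 0.145 by limma). Of 6 red cell genes tested in the colon, 0 were called and 5 passed unadjusted, 4 of them higher, beside 9.73% of all genes. In the bladder the sums overlapped, at 286 to 428 and 350 to 501 TPM. The part of macrophages or blood in the ferritin values was not tested.

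The 9 smooth muscle genes, from *Myh11* to *Myocd*, were all expressed, and their sum was 7519 to 8263 TPM in the Ctrl colons and 4938 to 5811 TPM in the Y/T KO colons. In the bladder it was 35122 to 45708 and 16723 to 30715 TPM. The medians were −0.42 and −0.87 on the log2 scale, with 0 called by limma and 5 and 6 passing unadjusted, beside 9.73% and 14.8% of all genes. Fewer cells of a type and less RNA per cell cannot be told apart in whole tissue. In the colon, 9297 to 10269 TPM of colon epithelial markers were present in Ctrl and 6534 to 8935 TPM in Y/T KO, and in the bladder 7801 to 8646 and 6412 to 7959 TPM of urothelial markers, so each tissue carried the markers of its label.

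None of the nearest genes on either side of *Ftl1* and *Fth1* was called. Of the genes that overlap a ferritin row, the microRNA genes *Mir692-2*, *Gm22774*, and *Gm26445* were lower in the Y/T KO bladders. Their log2 differences were −6.41 (SE 0.18), −10.28 (SE 0.42), and −7.24 (SE 0.59). They share sequence with the copies by which the rows were chosen, and their Ctrl libraries alone sufficed for the filter. These bladder values are therefore a description without a test. On either side of *Ftl1*, log2 fold changes in colon and bladder were 0.46 (SE 0.20) and −0.21 (SE 0.14) for *Ruvbl2*, −0.08 (SE 0.19) and −0.19 (SE 0.20) for *Gys1*, and 0.41 (SE 0.22) and −0.30 (SE 0.13) for *Bax*, from the limma fits. *Gm45808* was too low to be tested. Beside *Fth1*, *Incenp* had −0.42 (SE 0.15) and −0.42 (SE 0.24), *Best1* 0.48 (SE 0.33) and 0.26 (SE 0.23), and *Rab3il1* 0.20 (SE 0.20) and −0.14 (SE 0.12). *Tulp4*, the host of *Gm15590*, had 0.35 (SE 0.23) and 0.09 (SE 0.16), and *Grik3*, the host of *Ftl2-ps*, had 0.07 (SE 0.37) in the bladder. *Saa1*, a serum amyloid gene on chromosome 7, lies 1.28 Mb from *Ftl1*.

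Genes with a pattern most like the ferritin rows were ranked by Pearson's r of log2 levels over the 12 libraries, among 16297 genes tested in both tissues. For *Ftl1* these were *Gtf2h1* (r = 0.93), *Arfrp1* (0.90), *A030001D20Rik* (0.89), *Rwdd1* (0.88), and *Vti1b* (0.88). Of these 5, 2 lie on chromosome 7, *A030001D20Rik* at 0.18 Mb and *Gtf2h1* at 1.34 Mb from *Ftl1*. The share of all compared genes that lie on chromosome 7 was not counted. *A030001D20Rik*, picked here for its likeness to *Ftl1*, had 0.75 to 1.78 TPM in the 6 Ctrl libraries. In the 6 Y/T KO libraries it had 2.86 to 6.03 TPM. For *Fth1* the genes were *Efhb* (0.87), *8430406P12Rik* (0.86), *Spib* (0.85), *Gm9025* (0.84), and *Hotairm1* (0.84), none above 5.31 TPM in any library. Correlations over libraries of 2 tissues and 2 genotypes are a description only.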

How the data were processed

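RNA-seq of polyadenylated RNA was analysed in 12 libraries of 9 mice. Per the submitters' processing notes, the authors aligned stranded reads to GRCm38 with HISAT2 and assembled values with StringTie. Versions, read length, and annotation release are not given in the sources used here. The deposited tables give TPM per gene (transcript shares with the same total in each library), FPKM (fragments scaled for length and mapped total, from the authors), and coverage (the authors' mean read depth per base, a signal). Rows that carry 1 gene ID were added up. Values of each tissue were rescaled by size factors (median of ratios, 0.966 to 1.11). Genes that reached 0.5 TPM in 3 or more of 6 libraries were fitted as log2(TPM + 0.1) with limma 3.58.1 in R 4.3.3 (eBayes, trend and robust), so fold changes of low genes are understated. Adjusted p-values are two-sided and Benjamini-Hochberg over all genes tested, and genes under 0.05 are called. Levels in the text are TPM as deposited. All 6 rows passed the filter in both tissues, *Gm12164* in the bladder through its Ctrl libraries alone. The script was tested on simulated data.

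Members, gene lists, and tests were chosen with earlier results of these data known. Named were the 6 rows, related rows of at least 90% identity over at least 200 bases (blastn 2.17.0) that reached 1 TPM, overlapping and neighbouring genes, called genes and up to 6 genes per list, *Yap1*, *Wwtr1*, and the 5 genes most correlated with *Ftl1* and with *Fth1*. *Gm7541*, *Gm5278*, *Gm6977*, *Saa1*, and the miR-692 genes were added after values were seen. Sequences came from GENCODE M21 (GRCm38), with which 98.33% of genes shared coordinates, and miR-692 from RefSeq. A further stretch of sequence is not reported here. Counting error was not estimated, so precision rests on the spread between mice. Of the mice, 3 gave both tissues, but no mouse is in both genotypes, and the within-mouse correlation estimated by limma was 0.04 over the colon genes and 0.05 over the bladder genes. Alternatives covered the pseudocount, filter, unit, scaling, joint fits, and each library left out.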

Additional observations from a re-analysis of the deposited data

Results flagged for a closer look

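In the iron and NRF2 lists, 3 genes lay on opposite sides of Ctrl in the 2 tissues, without overlap in either after rescaling for library composition. Of all genes, 7.87% were lower and 8.24% higher without overlap in the colon, and 11.4% and 10.6% in the bladder. The share of all genes with opposite sides was not counted, and the difference between tissues was not tested. *Heph*, a copper oxidase of iron export, had a log2 fold change of −0.35 in the colon and 0.69 in the bladder. *Srxn1*, a peroxiredoxin repair enzyme, had 0.62 in the colon and −0.65 in the bladder. *G6pdx*, which supplies NADPH, had −0.30 in the colon and 0.0895 in the bladder. As deposited, *Heph* overlapped in the colon and *G6pdx* in the bladder. None of the 3 was called in either tissue.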

How the results depend on the processing

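Signs of the 6 rows' log2 fold changes stayed the same in both tissues under every alternative run, and in the colon only leaving out mouse 759 changed a call. Without a Ctrl bladder, *Gm12164* failed the filter and gave no value. In the colon, 14 genes were called lower and 10 higher, and these counts became 2 and 4 without the filter, 38 and 33 with all 12 libraries in 1 fit, and 40 and 33 with the mouse as a replicate block. The block changed no call of the 6 rows. Leaving out 1 library gave 1 to 43 lower and 2 to 20 higher in the colon, and 8 to 36 lower and 2 to 15 higher in the bladder, where 40 and 15 were called. In the bladder, 26 genes were called higher with all 12 libraries in 1 fit, with and without the block. The log2 fold change of the light chain sum ran from −0.40 to 0.02 in the colon and from −0.12 to 0.19 in the bladder with 1 library left out. By coverage the bladder value was −0.25, by row length 0.51, and by length with the microRNA genes 0.41. The colon values by length were 0.23 and, with those genes, 0.30. Coverage of *Ftl1* relative to FPKM was 0.70 to 0.72 of its usual ratio in every library, so coverage weights *Ftl1* less than the copies. With a pseudocount of 1 TPM the bladder values of *Ftl2-ps*, *Ftl1-ps2*, and *Gm12164* were −8.09, −6.19, and −4.18. Depth limits the lowest rows, where a fold that includes values listed at 0 depends on the pseudocount. A group listed at 0 throughout gives no fold.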

Other observations

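The gene most like *Ftl2-ps* over the 12 libraries, a comparison chosen after values were seen, was *Gm15545* (r = 0.98), which lies on chromosome 7 at 0.46 Mb from *Ftl1* and not near *Ftl2-ps* on chromosome 4. It ran from 21.3 to 24.1 TPM in the Ctrl colons and from 23.0 to 24.5 TPM in the Ctrl bladders. In Y/T KO it ran from 7.79 to 20.8 TPM in the colon and from 8.70 to 11.4 TPM in the bladder, below every Ctrl library as deposited. The size factors were 1.11 for Ctrl colon 786 and 1.00 for Y/T KO colon 759, and after rescaling the colons overlapped. *Gm15545* was picked for its likeness to *Ftl2-ps*, which differs by genotype, so this order is a description without a test.

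*Mir692-1*, a microRNA gene on chromosome 17 outside the 4 copies, had 2.67 to 4.86 TPM in the Ctrl colons and 2.49 to 4.78 TPM in the Ctrl bladders. It had 1.5 TPM in Y/T KO colon 759 and was listed at 0 in the other 5 Y/T KO libraries. In those 5, *Ftl2-ps* was listed at 0 in 2 colons and had at most 1.46 TPM in the bladders. *Mir692-1* is annotated to give miR-692, whose sequence occurs in *Ftl1* and all 4 copies, so its values cannot be told apart from light chain fragments. *Mir692-3*, inside *Ftl1-ps1*, stayed at or below 0.61 TPM.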
